A study of Homo sapiens with 6 samples.

Results

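Homeobox genes encode transcription factors that bind DNA through a homeodomain, and 121 of the 30330 genes in the deposited tables carry that transcription factor family as their annotation. Of these, 31 lie in the 4 HOX clusters (11 in HOXA, 6 in HOXB, 7 in HOXC and 7 in HOXD) and 90 lie elsewhere in the genome. The rule also set aside ZEB1 and ZEB2, of which 0 carried the homeobox annotation. HOXC11 carries another annotation and is not among the 121. RNA-seq libraries came from the NCI-H1975 line, human lung adenocarcinoma cells, in 2 groups of 3. The resistant group is H1975/OSI, derived from NCI-H1975 by exposure to 0.03, 0.1, 0.3, 1 and 3 µM osimertinib (a drug that blocks the EGFR kinase) over 7 months. The control group is NCI-H1975 without that selection. Library titles call the groups Drug and Control, and whether osimertinib was present at harvest is not given in the sources used here. H1975/OSI is 1 derived line. No label ties a library to a culture of its own, so the p-values describe library-to-library spread that may be purely technical.

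HOX genes sit in ordered arrays, and their order along the chromosome follows the body region in which the embryo uses them: low paralog numbers anteriorly, high numbers posteriorly. HOX proteins bind short AT-rich sites and gain specificity by pairing with homeodomain partners of the TALE class, chiefly PBX and MEIS proteins. Polycomb complexes keep the clusters silent where they are not used, the KMT2A methyltransferase keeps them active, and retinoic acid is a classical inducer of their low-numbered end. In adult lung the best known homeobox factor is NKX2-1, which drives surfactant and other lung lineage genes.

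All levels are normalized read counts, that is, the reads of a gene over the size factor of its library. Recovered totals were 15174126 to 16276518 reads per resistant library and 15813497 to 16588479 per control library. Homeobox genes took 19989, 21601 and 20659 recovered reads in resistant libraries 1 to 3, and 17645, 17696 and 18521 in control libraries 1 to 3. Resistant library 1 stood apart, with a chi-square per gene of 10.8 and 12.1 against resistant 2 and 3, compared with 2.32 between those 2 libraries and 2.43 to 3.66 among control libraries. A gene was called when its adjusted p was under 0.05 in limma, fitted on log2(value + 1) over all 24560 genes that reached 1 in at least 3 libraries. Fold changes are resistant over control on that scale, given as log2 with a standard error, and understate the change of genes with few reads. In bulk RNA, fewer cells expressing a gene and less RNA per cell cannot be told apart.

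As a family, homeobox genes were called about as often as other genes. Of the 121, 98 were tested, 25 rose, 16 fell and 57 were not called. That is 41.8% called, against 41.5% of all tested genes. Rises made up 25.5% of the tested homeobox genes, against 20.4% of all genes, and falls 16.3%, against 21.1%. Calls of at least 2-fold numbered 11 upward (7.86% of all genes) and 12 downward (5.72% of all genes). Resistant and control libraries did not overlap for 29 higher (24.7% of all genes) and 22 lower members (25.4% of all genes). The median log2 fold change was 0.17, beside 0.01 for all tested genes. Among the 61 homeobox genes with a mean of at least 20 reads, 27 were called, or 44.3%, against 59% of all genes at that level. Those 27 were 19 rises, beside 27.8% of all genes at that level, and 8 falls, beside 31.2%. Without resistant library 1 there were 24 rises and 15 falls. Median centring, which takes 0.13 off every log2 fold change, gave 20 rises and 22 falls. Of the called members, 1 rise (HOXD1) and 3 falls (VENTX, PKNOX2 and NKX1-2) passed the filter through 1 group alone, with 0 reads in the other, so that a difference was built into their being tested. Without them 24 of 94 rose and 13 fell.

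Of 21 tested HOX genes, 4 rose (HOXA3, HOXB9, HOXC4 and HOXD1) and 0 fell in limma, or 19.0% called, against 41.5% of all tested genes. Outside the clusters 21 of 77 rose and 16 fell, or 48.1%. The difference between HOX and other homeobox genes was not tested. HOX genes had fewer reads, and 9 of 31 reached a mean of 20, against 52 of 90 of the others. Among genes with a mean of at least 20 reads, 2 of 9 HOX genes (22.2%) and 25 of 52 other homeobox genes (48.1%) were called. Of all genes at that level 59% were called. At an unadjusted p under 0.05, 1 HOX gene (HOXB3) was lower, which was called under quantile normalization, under median centring and without resistant library 1, and edgeR and DESeq2 on recovered reads also called 0 lower. HOX transcripts were a small share of the family: the 31 HOX genes together held 3.01% of homeobox reads in resistant libraries and 2.52% in control libraries, against 97.0% and 97.5% for the 90 other genes. The 1145 tested transcription factors of other families had 365 rises (31.9%) and 204 falls (17.8%), beside 20.4% and 21.1% of all tested genes.

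**Figure D1:**
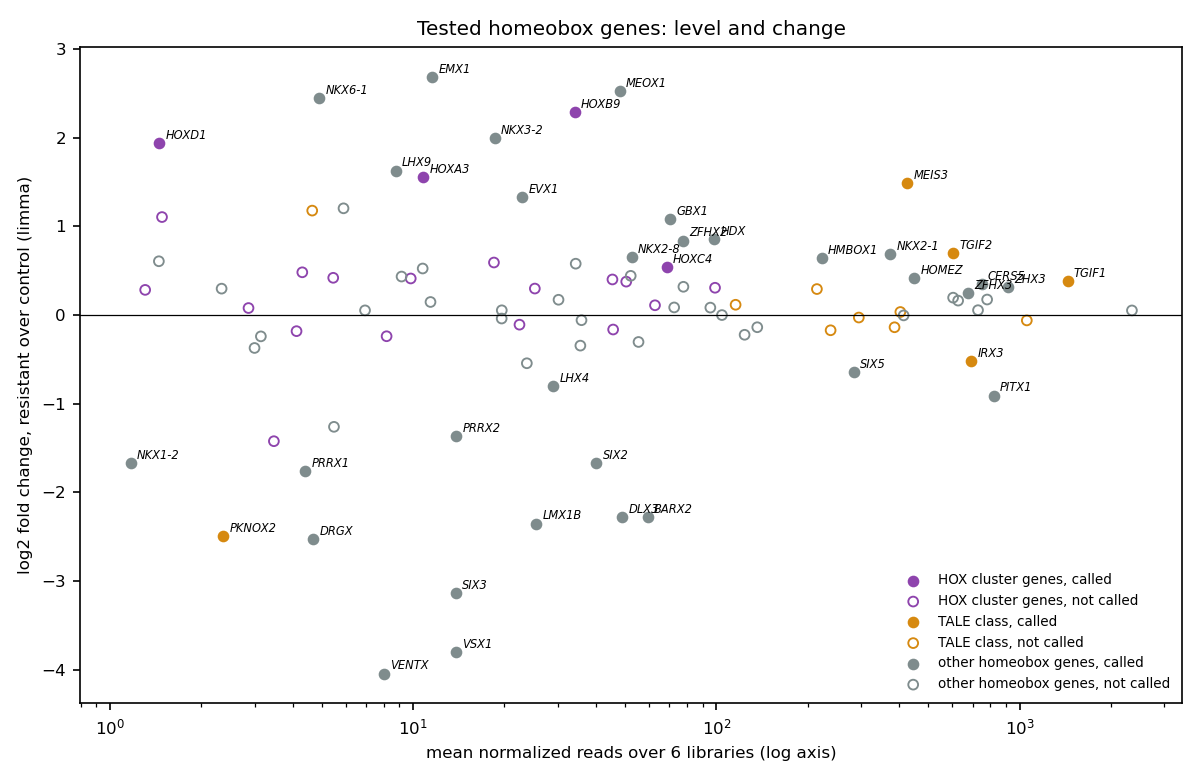
Log2 fold change (resistant over control, limma, y axis) against mean normalized reads over the 6 libraries (x axis, log scale) for 95 of the 98 tested homeobox genes, with filled points for called genes. HOX genes (purple) have the 4 rises HOXA3, HOXB9, HOXC4 and HOXD1, the TALE class (orange) has MEIS3 and TGIF2 among its rises, and the largest falls (VENTX, VSX1 and SIX3) are at low reads.

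The HOXA cluster spans chr7:27092993-27200106 on GRCh38, and 8 of its 11 genes were tested, with 1 call. HOXA3, which patterns pharyngeal and hindbrain structures, had 16.3, 15.7 and 16.8 reads in resistant libraries, against 3.08, 4.16 and 8.67 in control libraries. All 3 resistant libraries were above every control library. The log2 fold change was 1.55 ± 0.43 (SE), adjusted p = 0.00514 (limma), and the call held in all 15 alternative settings. The HOXA3 gene span includes HOXA4, HOXA5 and HOXA6 on the same strand and HOXA-AS2 and HOXA-AS3 on the opposite strand, and how shared reads were counted is not given in the sources used here. HOXA3 has 7 promoter windows in RefSeq, which hold 0 to 3 matches of TAAT, the core of most homeodomain sites, on either strand. The window nearest to the gene start (GRCh38.p14, minus strand, chr7:27152534-27152833, 250 bases before to 50 after the start) is shown. A HOX window is shown because HOX genes are themselves targets of homeodomain proteins. Capitals mark TAAT, and this window holds 1 match.
HOXA3: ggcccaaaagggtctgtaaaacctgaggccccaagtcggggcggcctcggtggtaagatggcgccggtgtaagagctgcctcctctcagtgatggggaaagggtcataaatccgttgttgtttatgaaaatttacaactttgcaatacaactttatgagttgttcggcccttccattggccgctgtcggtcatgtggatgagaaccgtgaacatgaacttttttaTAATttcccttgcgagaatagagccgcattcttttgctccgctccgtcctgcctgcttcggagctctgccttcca

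The more abundant HOXA genes were not called. HOXA10, a regulator of uterine and myeloid development, had 70.4, 60.0 and 65.1 reads in resistant libraries, against 62.6, 62.3 and 55.9 in control libraries. HOXA13, which patterns digits and the urogenital tract, had 72.4, 52.6 and 45.4 reads in resistant libraries, against 33.9, 38.4 and 59.8 in control libraries. HOXA5, required for lung development in the mouse, had 20.4, 18.5 and 27.6 reads in resistant libraries, against 19.5, 9.35 and 15.4 in control libraries. The groups overlapped for all 3 genes. The 95% intervals of their log2 fold changes were -0.28 to 0.49 for HOXA10, -0.12 to 0.87 for HOXA13 and -0.11 to 1.29 for HOXA5. HOXA10 turned to -0.01 under quantile normalization and -0.03 under median centring. HOXA2, HOXA6, HOXA7 and HOXA9 stayed under 10 reads in every library and were not called. HOXA4 and HOXA11 had at most 2 reads in a group.

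In the HOXB cluster (chr17:48548870-48633572), HOXB9 had the largest HOX rise. This posterior gene, which acts in thoracic patterning and mammary development in the mouse, had 62.2, 67.4 and 42.4 reads in resistant libraries, against 10.3, 12.5 and 9.64 in control libraries. The lowest resistant library was above the highest control library. HOXB9 averaged 57.3 ± 13.2 reads in resistant cells and 10.8 ± 1.49 in control cells (SD, n = 3 each), a log2 fold change of 2.29 ± 0.28 (SE), adjusted p = 4.72e-07 (limma), called in all 15 alternatives. HOXB9 made up most of the cluster. The summed HOXB reads were 69.3, 72.0 and 48.3 in resistant libraries, against 19.5, 18.7 and 20.2 in control libraries. HOXB3, near the anterior end, lay the other way, at 2.04, 0.923 and 0.987 reads in resistant libraries, against 3.08, 4.16 and 9.64 in control libraries. Its groups did not overlap, but the log2 fold change of -1.42 ± 0.59 (SE) missed the threshold at adjusted p = 0.0582 (limma). It was called lower under quantile normalization, under median centring and without resistant library 1. HOXB8, next to HOXB9, had 8 reads over the resistant libraries and 0 over the control libraries, at least 2.58-fold higher against a floor of 3 reads over the group, and was not tested. HOXB7, whose span overlaps HOXB9 and HOXB8, had at most 2.77 reads in any library.

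HOXC was the most strongly represented cluster, with 55.5% of HOX reads in resistant cells and 60.7% in control cells, and all 7 of its homeobox rows were tested. Summed HOXC reads (chr12:53938765-54056030) were 336, 333 and 344 in resistant libraries, against 280.3, 289.9 and 262 in control libraries. The groups did not overlap. The sole call was HOXC4, which had 88.7, 72.9 and 80.9 reads in resistant libraries, against 53.4, 69.6 and 45.3 in control libraries. Its log2 fold change was 0.54 ± 0.20 (SE), adjusted p = 0.0307 (limma). The call was lost in 8 of 15 alternatives, with adjusted p of 0.105 under median centring, 0.0703 in DESeq2 and 0.0714 without resistant library 1, and the HOXC4 span overlaps HOXC5 and HOXC6.

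HOXC13, which drives hair and nail keratin genes, had 98.9, 126 and 105 reads in resistant libraries, against 89.3, 80.01 and 95.4 in control libraries. Per kilobase of gene model it was the highest HOX gene, at 45.3 reads per kb in resistant cells and 36.4 in control cells, with HOXC4 next in resistant cells (29.7 in resistant and 20.6 in control cells) and HOXC9 next in control cells (25.8 in resistant and 28.6 in control cells). The HOXC13 groups did not overlap, yet the log2 fold change of 0.31 (95% interval -0.03 to 0.64) was not called. HOXC6 likewise did not overlap, at 43.9, 54.5 and 57.2 reads in resistant libraries against 33.9, 41.6 and 41.4 in control libraries, and was not called. HOXC10, HOXC9 and HOXC8 overlapped between groups, with log2 fold changes of 0.30, -0.16 and -0.11. HOXC9 changed sign without resistant library 2 or control library 1, and HOXC8 without resistant library 2 or control library 2. HOXC5 had 7 reads over the resistant libraries and 2 over the control libraries.

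The HOXD cluster (chr2:176092891-176190907) was the least represented, with summed reads of 30.6, 18.5 and 30.6 in resistant libraries against 22.6, 16.6 and 17.3 in control libraries. HOXD1, the anterior end of the cluster, had 3.06, 3.69 and 1.97 reads in resistant libraries, against 0 in each control library. That is 9 reads against 0, or at least 2.90-fold higher, and limma gave it an adjusted p of 0.0182. It passed the filter through the resistant group alone, so the call is not independent of its being tested. With any one resistant library left out, too few libraries held reads for a test, so the call rests on all 3 of them. HOXD4 and HOXD8 overlapped between groups at means under 12 reads. HOXD9, HOXD10, HOXD11 and HOXD13 had at most 6 reads in a group and were not tested.

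**Figure D2:**
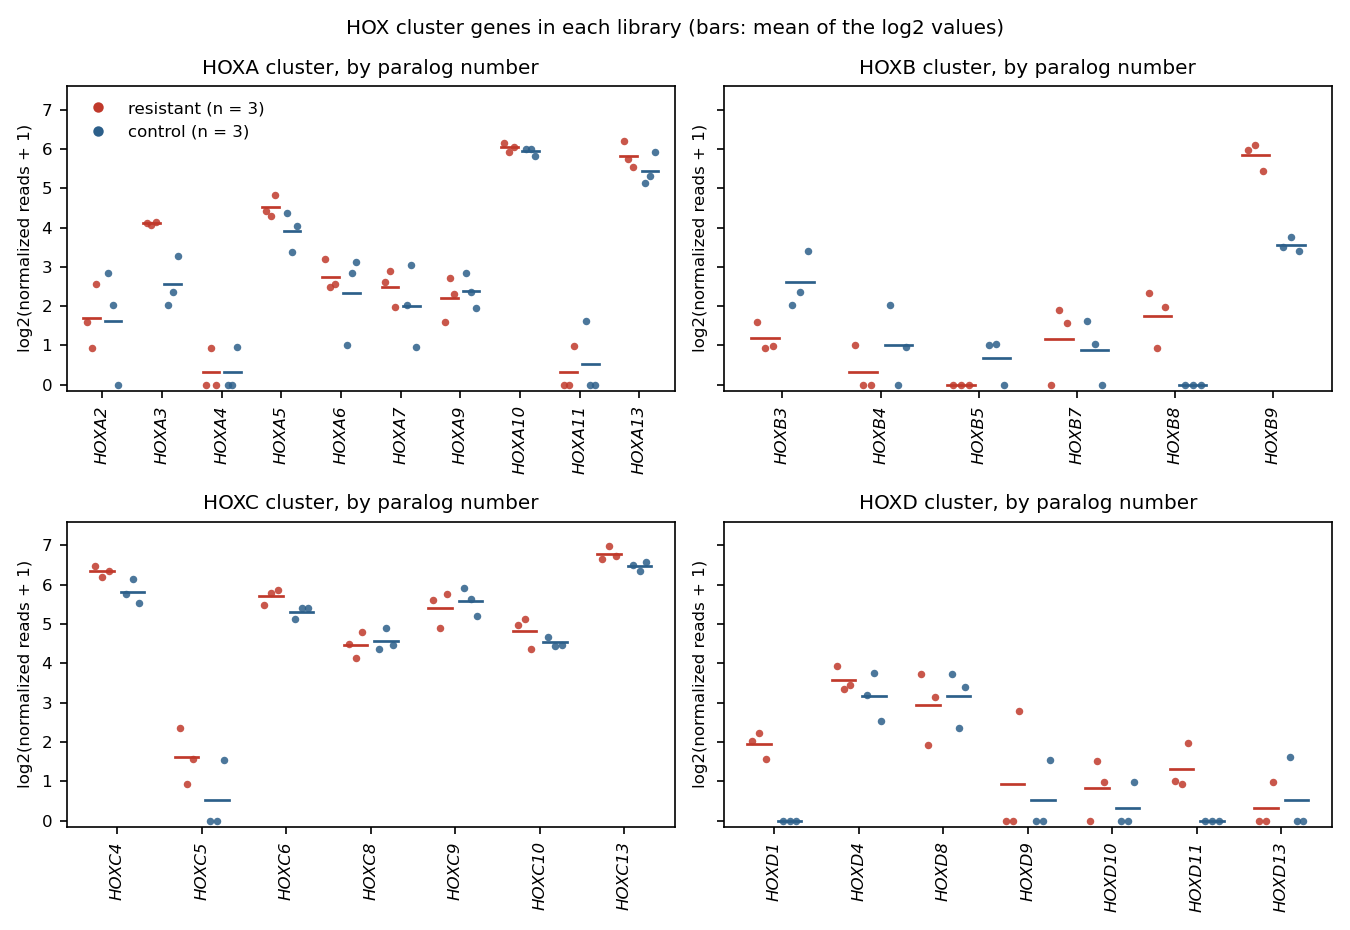
HOX genes in each library as log2(normalized reads + 1) (y axis), ordered by paralog number within a cluster, with resistant libraries in red, control libraries in blue and bars at the mean of 3. HOXB9 and HOXA3 are separated between groups, HOXC genes are high in both groups, and the HOXD9 to HOXD13 end has under 7 reads in every library.

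By paralog group, groups 1 to 3 had 2 rises among 4 tested genes (HOXA3, and HOXD1 with the limit above). Groups 4 to 8 had 1 among 10 (HOXC4), and groups 9 to 13 had 1 among 7 (HOXB9). Over all tested genes 20.4% rose. The 21 tested HOX genes had a median log2 fold change of 0.38. In each cluster 1 gene was called, and no 2 adjacent members were.

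Noncoding RNA genes inside the clusters held a larger rise than most of the HOX genes. Of 14 such rows, 9 were tested and 2 rose, or 22.2%, close to the 20.4% of all tested genes. HAGLR, transcribed from the strand opposite HOXD1 (chr2:176164051-176188958), had 64.2, 40.6 and 41.4 reads in resistant libraries, against 8.21, 6.23 and 5.78 in control libraries. Every resistant library was far above every control library, and the log2 fold change was 2.66 ± 0.32 (SE), adjusted p = 3.01e-07 (limma). HAGLR overlaps HOXD1 at its end, and reads of the 2 strands cannot be told apart because strand handling is not given in the sources used here. HOTAIR, a noncoding RNA between HOXC genes that has been linked to Polycomb targeting, had 8.16, 12.0 and 8.88 reads in resistant libraries, against 2.05, 2.08 and 2.89 in control libraries (log2 fold change 1.67 ± 0.50 SE, adjusted p = 0.00897, limma). HOTTIP, at the HOXA13 end of HOXA, had 0, 0 and 1.97 reads in resistant libraries and 2.05, 4.16 and 3.86 in control libraries, and was not called.

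Genes around the clusters moved in both directions, beside 20.4% rises and 21.1% falls over all tested genes. Homeobox genes were left out of the counts of flanking genes. Within 1 Mb of HOXA, 16 genes outside the homeobox family were tested, 3 rose and 8 fell, with a median log2 fold change of -0.46, beside 0.40 for the HOXA genes. Around HOXB, 3 of 40 rose and 17 fell (median -0.37, beside 0.28 for HOXB genes). Only 3 HOXB genes were tested, and that 0.28 is HOXB7, with 5 reads over the resistant and 3 over the control libraries. Around HOXC, 9 of 54 rose and 17 fell (median -0.14, beside 0.31). Around HOXD, 3 of 7 rose and 1 fell (median 0.19, beside 0.41). The HOXD median also covers 3 tested genes, and is the value of HOXD4. AC004080.1 and EVX1-AS, the counted genes nearest beyond the HOXA13 end, rose at means of 2.60 and 6.04 reads over the 6 libraries. HOTTIP, which crosses that end and was not counted, was lower in the resistant libraries but was not called. EVX1, a homeobox gene of spinal cord interneurons, not among those 16, that lies 42.6 kb beyond HOXA13, had 41.8, 24.9 and 32.6 reads in resistant libraries, against 14.4, 8.31 and 15.4 in control libraries (log2 fold change 1.33 ± 0.32 SE, adjusted p = 0.00177, limma). The antisense EVX1-AS overlaps it and also rose, by a log2 fold change of 1.63. SKAP2, a signalling adaptor gene on the far side of the cluster, fell by 0.49 on the log2 scale.

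**Figure D3:**
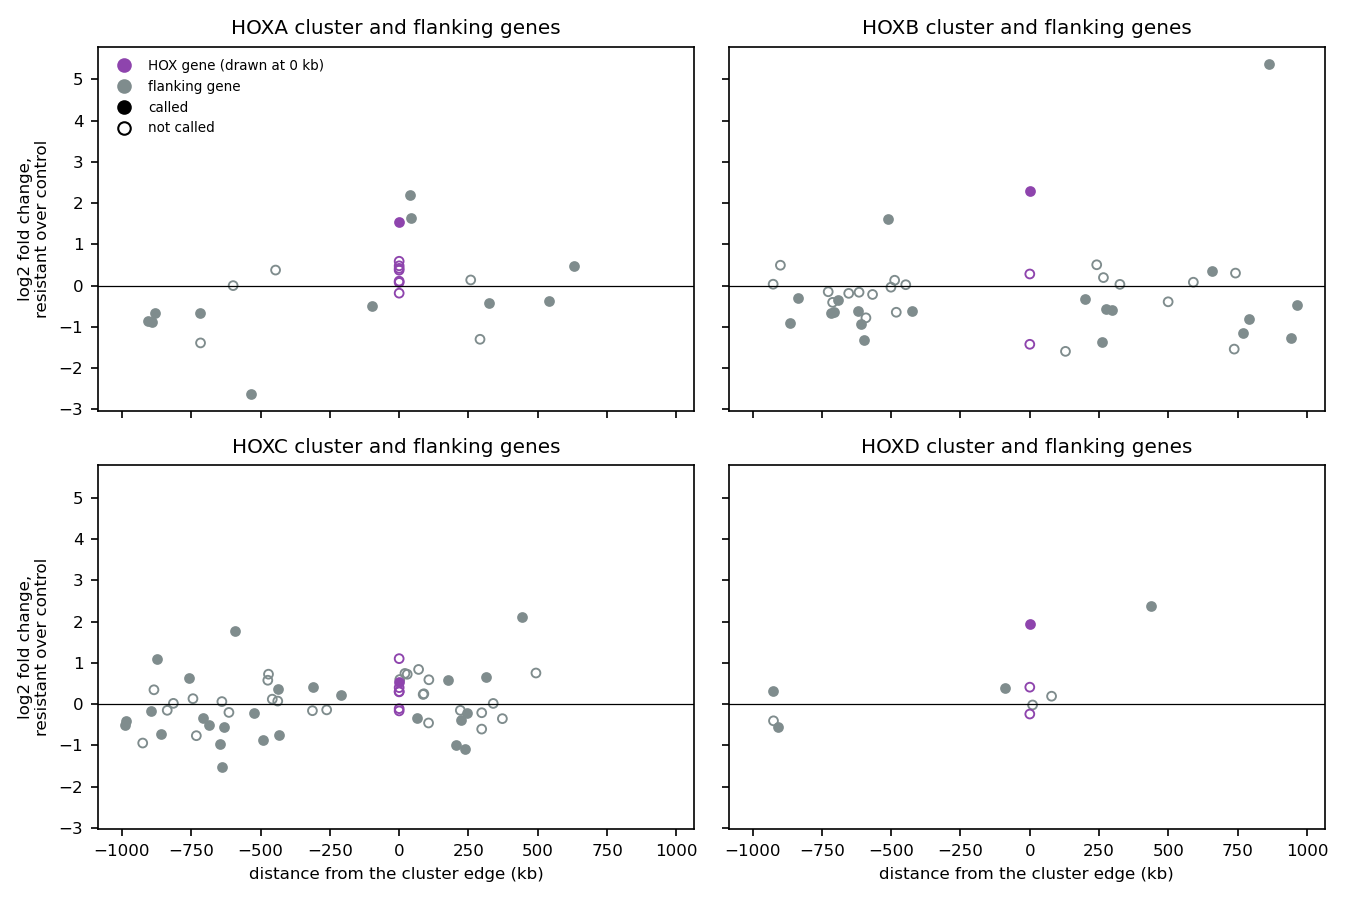
Log2 fold change (resistant over control, limma) of tested genes in and within 1 Mb of each HOX cluster, against distance from the cluster edge in kb, with HOX genes in purple drawn at 0 and filled points for called genes. Flanking genes of HOXA and HOXB are mostly under 0, and those of HOXC lie about evenly on both sides of 0. Most HOX genes are above 0.

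The TALE class includes the PBX and MEIS partners of HOX proteins, and also the TGIF and Iroquois genes. As a whole it held 35.5% of homeobox reads in resistant cells and 32.9% in control cells, far more than the HOX genes. All 14 members were tested: 4 rose (MEIS3, TGIF2 and TGIF1 among them), 2 fell (IRX3 and PKNOX2) and 8 were not called. That is 42.9% called, beside 59% of all genes with a mean of at least 20 reads, a level that 12 of the 14 reached. Summed TALE reads were 7451, 7098 and 7030 in resistant libraries, against 5924, 6082 and 5896 in control libraries. MEIS3 had 689, 596 and 597 reads in resistant libraries, against 247, 237 and 187 in control libraries. Resistant libraries averaged 627 ± 53.6 reads and control libraries 224 ± 32.3 (SD, n = 3 each), a log2 fold change of 1.49 ± 0.11 (SE), adjusted p = 7.52e-11 (limma). The groups did not come near to overlap, and the call held in all 15 alternatives.

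PBX2, PBX3, MEIS1 and MEIS2 did not share this. PBX2 averaged 1035 ± 73.7 reads in resistant cells and 1078 ± 37.1 in control cells, PBX3 368 ± 6.67 and 406 ± 12.7, MEIS1 120.3 ± 8.63 and 111 ± 10.9, and MEIS2 224 ± 15.02 and 252 ± 19.3 (SD, n = 3 each). These 4 had log2 fold changes between -0.17 and 0.11 and were not called, although median centring called PBX2, PBX3 and MEIS2 lower and turned MEIS1 to -0.02. PBX4 had 219, 268 and 223 reads in resistant libraries, against 190.0, 185 and 202 in control libraries, without overlap. It missed the threshold at adjusted p = 0.0537 (limma), while edgeR called it at 0.0423. PKNOX1, which forms dimers with PBX proteins, averaged 292 ± 30.8 reads in resistant cells and 298 ± 34.0 in control cells. Its paralog PKNOX2 had 0 reads in each resistant library, against 4.11, 6.23 and 3.86 in control libraries, or 0 against 14 reads, at least 4.83-fold lower (adjusted p = 0.00211, limma). With any one control library left out it could not be tested.

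TGIF1 and TGIF2, which act as repressors in transforming growth factor beta and retinoid signalling, both rose. TGIF2 had 844, 739 and 661 reads in resistant libraries, against 483, 455 and 442 in control libraries (log2 fold change 0.69 ± 0.09 SE, adjusted p = 1.01e-06, limma), and shares its span with the read-through gene TGIF2-RAB5IF. TGIF1 had 1766, 1542 and 1579 reads in resistant libraries, against 1199, 1294 and 1263 in control libraries (log2 fold change 0.38 ± 0.07 SE, adjusted p = 0.000123, limma). Neither pair of groups overlapped. Of the Iroquois genes, IRX3 had 585, 589.8 and 529 reads in resistant libraries, against 791, 853 and 802 in control libraries. It fell by 0.52 on the log2 scale (adjusted p = 9.14e-06, limma), while IRX5 averaged 408 ± 20.6 reads in resistant cells and 400.4 ± 47.6 in control cells. Promoter windows of MEIS3 (chr19:47419478-47419777, minus strand) and TGIF2 (chr20:36573214-36573513, plus strand), from RefSeq on GRCh38.p14, are shown because both genes rose and differ in base composition. Each gene has 2 windows, and the window nearest to the gene start is shown. That of MEIS3 holds 1 TAAT match, in capitals, and that of TGIF2 holds 0.
MEIS3: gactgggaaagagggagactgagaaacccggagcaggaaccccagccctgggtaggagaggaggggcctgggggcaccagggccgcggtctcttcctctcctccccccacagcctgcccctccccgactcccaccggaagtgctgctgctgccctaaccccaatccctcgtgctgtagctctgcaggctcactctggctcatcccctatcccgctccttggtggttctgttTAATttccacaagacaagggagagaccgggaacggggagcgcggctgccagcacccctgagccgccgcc
TGIF2: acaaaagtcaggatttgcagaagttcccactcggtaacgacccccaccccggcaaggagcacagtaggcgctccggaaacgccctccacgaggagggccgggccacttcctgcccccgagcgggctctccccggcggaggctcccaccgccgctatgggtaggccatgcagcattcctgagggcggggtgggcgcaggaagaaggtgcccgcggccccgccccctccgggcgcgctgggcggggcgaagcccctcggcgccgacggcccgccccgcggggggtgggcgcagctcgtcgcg

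**Figure D4:**
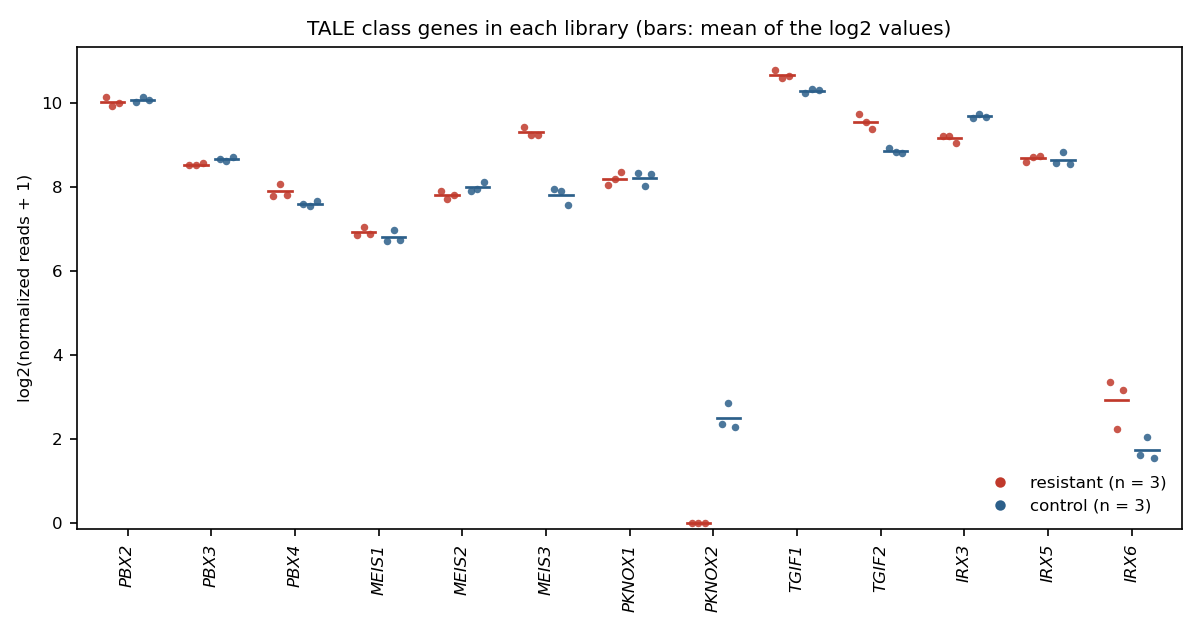
13 of the 14 TALE class genes in each library as log2(normalized reads + 1) (y axis), resistant libraries in red, control libraries in blue, bars at the mean of 3. MEIS3, TGIF2 and TGIF1 are higher and IRX3 lower in all resistant libraries, and PKNOX2 is at 0 reads in the resistant group.

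Among the 35 genes of the NK and other ANTP classes, 27 were tested, 8 rose and 4 fell. That is 44.4% called, close to the 41.5% of all tested genes. NKX2-1, the lung and thyroid lineage factor, had 439.5, 463 and 481 reads in resistant libraries, against 303, 303 and 254 in control libraries. The groups were well apart, with a mean of 461 ± 21.0 in resistant cells and 287 ± 28.1 in control cells (SD, n = 3 each), a log2 fold change of 0.69 ± 0.10 (SE), adjusted p = 4.32e-06 (limma). The antisense gene NKX2-1-AS1 overlaps it. Its neighbour NKX2-8, 59.4 kb away, had 89.7, 49.8 and 56.2 reads in resistant libraries, against 39.0, 38.4 and 42.4 in control libraries. That rise (log2 fold change 0.65 ± 0.23 SE, adjusted p = 0.0249, limma) was lost in 6 of 15 alternatives, with adjusted p = 0.180 without resistant library 1.

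Lung lineage genes outside the homeobox family moved both ways beside NKX2-1. Of 18 such rows in the tables, 15 were tested, 7 rose and 3 fell, with a median log2 fold change of 0.46. That is 66.7% called, beside 59% of all genes with a mean of at least 20 reads, a level that 12 of the 15 reached. The rises include SCGB3A2, which had 0 reads in each control library and passed the filter through the resistant group alone. SLC34A2, a phosphate transporter of alveolar cells, averaged 336 ± 15.4 reads in resistant cells and 91.3 ± 8.30 in control cells (log2 fold change 1.87). ABCA3, which loads lipid into surfactant granules, averaged 3520 ± 263 reads in resistant cells and 2111 ± 145 in control cells (log2 fold change 0.74). FOXA2, a forkhead factor of the endoderm, had 3.06, 3.69 and 0 reads in resistant libraries, against 60.6, 85.2 and 46.3 in control libraries (log2 fold change -4.56). SFTPB, SFTPC and SFTPD, which encode surfactant proteins, were at most 3.58 reads on average in either group.

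Several ANTP genes known from other tissues rose from low levels. MEOX1, a somite gene, had 76.5, 96.9 and 73.0 reads in resistant libraries, against 19.5, 12.5 and 9.64 in control libraries (log2 fold change 2.53 ± 0.27 SE, adjusted p = 4.34e-08, limma). EMX1, a forebrain gene, had 32.6, 16.6 and 12.8 reads in resistant libraries, against 4.11, 2.08 and 0.964 in control libraries (log2 fold change 2.68 ± 0.50 SE, adjusted p = 0.000103, limma). GBX1, of the spinal cord, had 111, 90.5 and 86.8 reads in resistant libraries, against 42.1, 44.7 and 47.2 in control libraries (log2 fold change 1.08). All 3 had no overlap between groups, and resistant library 1 was the highest for EMX1 and GBX1 but not for MEOX1. NKX3-2, a cartilage gene, averaged 30.0 ± 6.68 reads in resistant cells and 7.14 ± 3.27 in control cells (log2 fold change 1.99). NKX6-1, of pancreatic beta cells, had 9.18, 5.54 and 10.9 reads in resistant libraries, against 0, 0 and 3.86 in control libraries (log2 fold change 2.45).

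BARX2, DLX3, VENTX and NKX1-2 fell in these classes. BARX2, which acts in muscle and gland development, had 15.3, 16.6 and 28.6 reads in resistant libraries, against 112, 91.4 and 92.5 in control libraries (log2 fold change -2.28 ± 0.24 SE, adjusted p = 4.34e-08, limma). DLX3, of skin, hair and placenta, had 17.3, 23.1 and 9.87 reads in resistant libraries, against 71.9, 90.4 and 81.0 in control libraries (log2 fold change -2.28 ± 0.27 SE, adjusted p = 2.63e-07, limma). Neither gene had overlapping groups. DLX4, 15.05 kb from DLX3, did not follow it, with 119, 105 and 88.8 reads in resistant libraries, against 114, 106 and 92.5 in control libraries (log2 fold change -0.00, 95% interval -0.33 to 0.33). VENTX, a regulator of blood cell differentiation, had 0 reads in each resistant library, against 10.3, 17.7 and 20.2 in control libraries. That is 0 against 48 reads, or at least 16.6-fold lower, with adjusted p = 2.35e-06 (limma), and it could not be tested with any one control library left out. NKX1-2 was also at 0 reads in resistant cells, against 7 reads in control cells, and its call (adjusted p = 0.0478, limma) was lost without any one resistant library. DLX1, DLX2, MSX1, MSX2 and EN2 were not called, at log2 fold changes of 0.05, 0.58, -0.22, -0.14 and 0.08. DLX1 turned negative under quantile normalization and median centring.

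Among the sine oculis homeobox genes, whose proteins act with EYA cofactors in placode, muscle and kidney development, 3 of 5 genes fell. That is 60%, beside 21.1% of all tested genes and 31.2% of those with a mean of at least 20 reads. SIX3, of the forebrain and eye, had 2.04, 1.85 and 1.97 reads in resistant libraries, against 30.8, 29.1 and 17.3 in control libraries (log2 fold change -3.14 ± 0.44 SE, adjusted p = 2.55e-06, limma). SIX2, which maintains nephron progenitors and lies 59.1 kb from SIX3, had 20.4, 16.6 and 17.8 reads in resistant libraries, against 85.2, 50.9 and 50.1 in control libraries (log2 fold change -1.67 ± 0.26 SE, adjusted p = 1.26e-05, limma). SIX5 averaged 223 ± 41.7 reads in resistant cells and 344 ± 17.5 in control cells (log2 fold change -0.64). None of these 3 had overlapping groups. SIX4 averaged 663 ± 74.7 reads in resistant cells and 591 ± 49.2 in control cells and was not called.

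In the paired-like class, 12 of 17 genes were tested, 5 fell and 1 rose. That is 41.7% falls and 8.33% rises, beside 21.1% and 20.4% of all tested genes. PITX1, a hindlimb and pituitary factor and one of the most abundant homeobox genes, had 494, 581 and 645 reads in resistant libraries, against 1088, 1099 and 1026 in control libraries. The highest resistant library was far below the lowest control library, a log2 fold change of -0.91 ± 0.09 (SE), adjusted p = 8.60e-09 (limma). The antisense gene PITX1-AS1 overlaps it. VSX1, of the retina, had 1 read in each resistant library, against 30.8, 27.0 and 22.2 reads in control libraries, a ratio between 0.00741 and 0.111 by its 95% counting interval. PRRX2 and PRRX1, of limb mesenchyme, averaged 7.47 ± 3.01 and 1.67 ± 1.51 reads in resistant cells, against 20.3 ± 4.63 and 7.14 ± 2.90 in control cells. The PRRX1 call was lost in 6 of 15 alternatives. DRGX, of sensory neurons, fell to 3 reads over the resistant libraries, against 25 over the control libraries, a ratio between 0.0224 and 0.38 by the same interval. HDX was the sole rise, at 95.9, 141 and 147 reads in resistant libraries, against 71.9, 70.7 and 64.6 in control libraries (log2 fold change 0.86).

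Promoter windows of SIX2 (chr2:45009403-45009702, minus strand) and PITX1 (chr5:135034179-135034478, minus strand), from RefSeq on GRCh38.p14, are shown as falls that differ in their homeodomain cores: SIX2 holds 4 TAAT matches, in capitals and in part overlapping, and PITX1 holds 0. The RefSeq start in the PITX1 window lies 585 bases from the gene start in the deposited tables.
SIX2: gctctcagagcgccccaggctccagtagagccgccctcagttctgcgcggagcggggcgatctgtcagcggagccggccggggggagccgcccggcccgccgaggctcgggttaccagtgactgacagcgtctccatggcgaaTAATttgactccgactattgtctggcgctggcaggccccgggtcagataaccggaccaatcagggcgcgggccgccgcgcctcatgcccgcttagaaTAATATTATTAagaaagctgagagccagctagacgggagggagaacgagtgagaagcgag
PITX1: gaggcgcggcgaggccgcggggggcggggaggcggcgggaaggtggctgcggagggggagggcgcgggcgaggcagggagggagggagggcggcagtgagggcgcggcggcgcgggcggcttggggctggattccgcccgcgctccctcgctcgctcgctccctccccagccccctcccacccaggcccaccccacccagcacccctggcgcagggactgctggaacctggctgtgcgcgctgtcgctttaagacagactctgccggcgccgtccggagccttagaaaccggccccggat

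Over the homeobox family, 77 genes had 108 windows in the table of 300-base promoter windows. TAAT, searched on both strands, was found in 57.4% of these windows and in 50.2% of all 35116 windows. TGATTNAT, a composite site of PBX and HOX, was found in 8.33% and 2.82%, and TGANTCA, the AP-1 site, in 7.41% and 7.71%. The 8.33% stands for 9 windows, several of which are alternative starts of TGIF1 alone. The retinoic acid element DR5, a direct repeat of AGGTCA, was found in 0 homeobox windows and in 2 of all windows. Homeobox windows had a median of 23 CG dinucleotides, against 14 for all windows, and windows overlap where a gene has several starts. These are letter matches and not bound sites.

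In the LIM class, 1 of 7 genes rose and 2 fell, or 42.9% called, close to the 41.5% of all tested genes. LMX1B, of dorsal limb and kidney podocytes, had 7.14, 6.46 and 8.88 reads in resistant libraries, against 49.3, 52.0 and 28.9 in control libraries (log2 fold change -2.35 ± 0.33 SE, adjusted p = 2.68e-06, limma). LHX4, a pituitary gene, averaged 20.9 ± 5.98 reads in resistant cells and 36.9 ± 7.92 in control cells, and LHX9, a gonad gene, 13.9 ± 6.05 and 3.67 ± 1.42. Without resistant library 1 neither of these was called, at adjusted p = 0.112 for LHX4 and 0.0543 for LHX9 (limma).

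**Figure D5:**
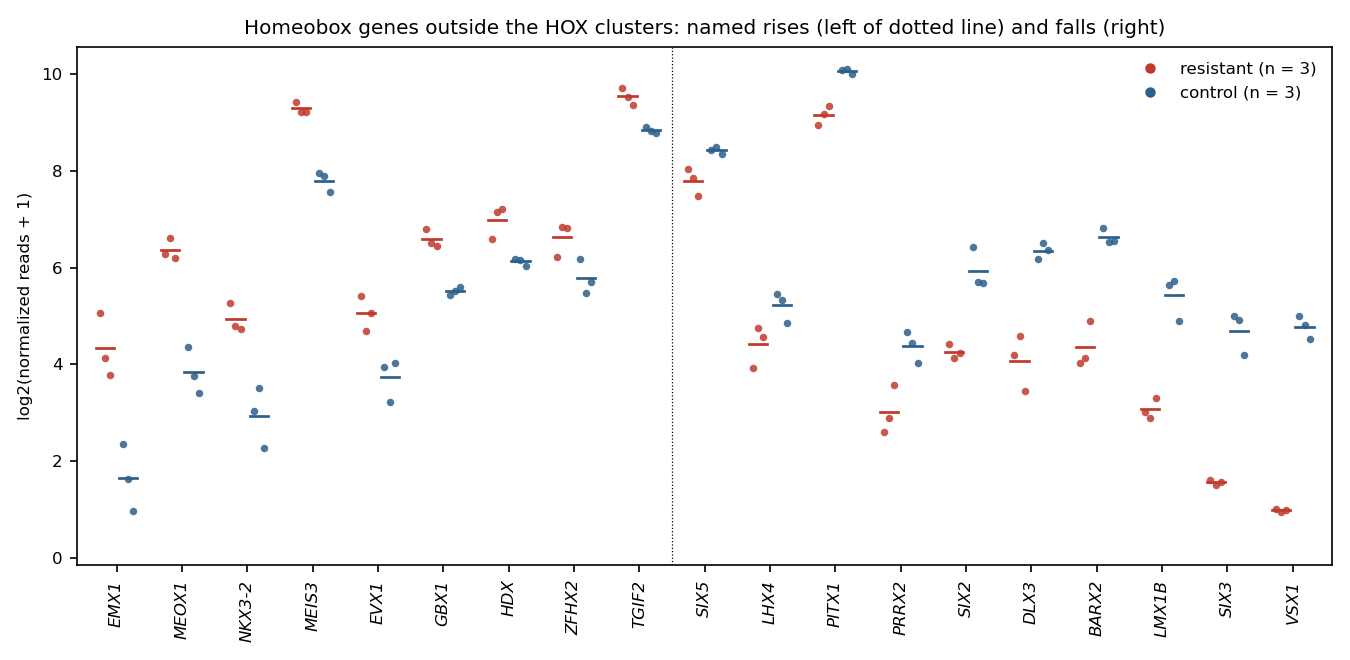
9 of the 10 largest rises (left of the dotted line) and the 10 largest falls (right) outside the HOX clusters among called genes with non-overlapping groups and a mean of at least 20 reads in the higher group, as log2(normalized reads + 1) in each library, resistant in red and control in blue with bars at the mean of 3. The rises include genes with a mean above 200 reads in both groups (MEIS3 and TGIF2), while SIX5 and PITX1 are the falls with a mean above 200 reads in both groups.

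The last group holds zinc finger homeobox genes and others in which the homeodomain is joined to other domains. Its called changes were small and upward. Of 12 genes, 6 rose (HMBOX1, HOMEZ, ZFHX2, CERS5, ZHX3 and ZFHX3), at log2 fold changes between 0.25 and 0.84. That is 50%, beside 27.8% of all genes with a mean of at least 20 reads, a level that 11 of the 12 reached. HMBOX1, which binds telomeric DNA, had 274, 247 and 294 reads in resistant libraries, against 176, 175 and 169.6 in control libraries (log2 fold change 0.64 ± 0.12 SE, adjusted p = 6.90e-05, limma). CERS5, a ceramide synthase that carries a homeobox-like domain, averaged 840.3 ± 49.7 reads in resistant cells and 659 ± 45.4 in control cells (log2 fold change 0.35). Neither gene had overlapping groups. ADNP, the most abundant of all 121 genes and the highest per kilobase, averaged 2389 ± 72.9 reads in resistant cells and 2305 ± 36.8 in control cells. Its log2 fold change of 0.05 (95% interval -0.08 to 0.18) was not called and turned to -0.08 under median centring. Over the 15 alternatives, ZHX3 was called except under median centring and ZFHX2 except in limma without a trend. ZFHX3 lost its call in 4: median centring (adjusted p = 0.297), limma without a trend (0.0820), without resistant library 2 (0.0598) and without control library 3 (0.0806).

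Of the 23 homeobox genes too low to test, 10 are HOX genes, 8 belong to the NK and ANTP classes and 5 to the paired-like class. None had more than 8 reads over the 3 libraries of a group. NOTO, GSC2 and EVX2 had 5, 5 and 4 reads in resistant cells against 0 in control cells. CDX2, HOPX and SATB1 were not analysed here.

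Regulators of the HOX clusters changed in both directions. Of 32 Polycomb genes, all tested and all with a mean of at least 100 reads, 9 rose and 11 fell, with a median log2 fold change of 0.08. That is 62.5% called, close to the 63.1% of all genes at that level. PCGF6, a subunit of a variant Polycomb complex, averaged 204 ± 30.9 reads in resistant cells and 374 ± 13.3 in control cells (log2 fold change -0.88). PHF19, which helps recruit the Polycomb methyltransferase, averaged 480.2 ± 16.2 and 799.5 ± 34.2 (log2 fold change -0.73), and RYBP, of variant complexes, 1198 ± 196 and 745 ± 22.8 (log2 fold change 0.67). EZH2, the catalytic subunit, fell by 0.28 on the log2 scale. Of the KMT2 and trithorax genes, 22 of 23 were tested, 8 rose and 5 fell, with a median of -0.08. That is 59.1% called, beside 59% of all genes with a mean of at least 20 reads. KMT2A, the methyltransferase that maintains HOX expression in blood progenitors, had 2871, 3145 and 3152 reads in resistant libraries, against 2270, 2042 and 1907 in control libraries (log2 fold change 0.56 ± 0.07 SE, adjusted p = 5.74e-07, limma).

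Of the retinoic acid genes, 16 of 18 rows were tested, 7 rose and 5 fell, with a median log2 fold change of 0.18. That is 75.0% called, beside 59% of all genes with a mean of at least 20 reads, a level that 13 of the 16 reached. STRA6, the receptor through which cells take up retinol, had 1258, 1313 and 1121 reads in resistant libraries, against 319, 313 and 274 in control libraries (log2 fold change 2.02 ± 0.09 SE, adjusted p = 7.47e-15, limma). DHRS3, which reduces retinal, averaged 1731 ± 404 reads in resistant cells and 317 ± 23.0 in control cells (log2 fold change 2.42). CYP26A1, which degrades retinoic acid, had 14.3, 14.8 and 4.93 reads in resistant libraries, against 0 in each control library. It is among the 7 rises but passed the filter through the resistant group alone, so a difference was built into its being tested. CRABP2, which carries retinoic acid to its receptors, fell by 1.51 on the log2 scale.

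Marker lists were read beside these results, and their part in them was not tested. Over all tested genes 20.4% rose and 21.1% fell, and 59% of genes with a mean of at least 20 reads were called. Called shares of tested rows were 90.9% for the epithelial, 75% for the fibroblast, 33.3% for the endothelial and 50% for the leukocyte list. A mean of at least 20 reads was reached by 10 epithelial, 2 fibroblast, 2 endothelial and 3 leukocyte rows. Of 11 epithelial genes, 9 were lower and 1 (ELF3) higher in resistant cells, with sums of 42594 to 49645 reads in resistant libraries against 61517 to 64977 in control libraries. CDH1 averaged 116 ± 16.5 reads in resistant cells and 368 ± 39.2 in control cells, and KRT8 16385 and 23304. Of 8 fibroblast rows, 4 were higher and 2 lower, with sums of 4825 to 5402 reads in resistant libraries against 4438 to 5341 in control libraries, nearly all from COL1A1. LUM, among the higher rows, was at 0 in each control library and passed the filter through the resistant group alone. PRRX1 is both in this list and a homeobox gene. Of 6 endothelial rows, CDH5 was higher (579 ± 105 reads in resistant cells, 126 ± 3.37 in control cells) and PECAM1 lower, with sums of 571 to 765 reads in resistant libraries against 295 to 337 in control libraries. VWF was at most 5.09 reads on average in either group. Of 5 leukocyte rows, CD14 was lower and 1 other was higher, with sums of 320.2 to 364 reads in resistant libraries against 438 to 439 in control libraries.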

How the data were processed

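RNA-seq of 3 resistant (H1975/OSI) and 3 control NCI-H1975 libraries was analysed. Kits were NEBNext Ultra and SMARTer, per the labels' protocols, and reads were placed on GRCh38, per the submitters' processing notes. Which aligner, counter, strand setting and normalization were used is not given in the sources used here. For each library the authors deposited 1 table with a value per gene on a signal scale. Within 0.001 reads, 100% of a library's deposited values on that signal scale were multiples of 1 step, so they are counts divided by a size factor, and whole reads were recovered. edgeR (4.0.16) and DESeq2 (1.42.0) were run on the recovered reads as alternatives.

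The main test was limma-trend (limma 3.58.1, R 4.3.3, robust, two-sided) on log2(value + 1), for 24560 genes (reaching 1 in 3 or more libraries), with Benjamini-Hochberg adjustment over all of them and a threshold of 0.05. On simulated data for this comparison it was tested with known fold changes before use. Members were rows annotated Homeobox; 120 symbols came from a gene name table and 1 from GENCODE 29. The members, lists and naming rule were chosen with earlier results of these data known. Named were HOX genes with a mean of at least 10 in the higher group, the 10 largest rises and 10 largest falls outside the clusters among called genes without overlap and at least 20 in the higher group, the 8 most abundant members, a fixed set of 25 genes (20 with a row) and, per list, the 3 called members with the smallest adjusted p. Other genes named were chosen after their values were seen. Results for some genes are not reported here. Bounds against 0 reads use a floor of 3 reads over the group; intervals on read ratios (95%) cover counting error only.

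Replicate numbers are shared between groups, and no label ties a number to a day or culture. Alternatives were other normalizations (quantile, median centring), no filter, a minimum of 5, a pseudocount of 0.1, no trend, the replicate block, both count tools and each library left out. A library left out can put a gene seen in 3 libraries below the filter.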

Additional observations from a re-analysis of the deposited data

How the results depend on the processing

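Of the 41 called homeobox genes, 17 of 25 rises and 11 of 16 falls kept their call in all 15 alternatives, as did 2 of the 4 HOX calls (HOXA3 and HOXB9). Rises of the family ranged from 22 to 25 and falls from 11 to 16 with 1 library left out; edgeR gave 26 and 16, DESeq2 23 and 13. HOX rises numbered 2 in DESeq2, where HOXD1 had no adjusted p, and 2 to 4 with 1 library left out; HOX falls numbered 1 (HOXB3) under quantile normalization and median centring, and 0 to 1 with 1 library left out. By cluster, HOXB rises numbered 2 with no filter; HOXB falls 1 under quantile normalization and median centring and 0 to 1 with 1 library left out; HOXC rises 0 under quantile normalization, median centring, limma without trend and DESeq2, and 0 to 1 with 1 library left out; HOXD rises 0 with a minimum of 5 and in DESeq2, and 0 to 1 with 1 library left out, where the filter itself drops HOXD1. Other causes of these differences were not tested.

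Of 77 named genes, 54 kept both their sign and their call, or lack of a call, in every alternative that tested them. Over 1145 pairs of a named gene and an alternative, 1084 stayed the same, 32 lost a call, 11 gained a call and 18 changed sign. Sign changes were limited to genes that were not called. On the log2 scale, quantile normalization gave HOXA10 -0.0143, DLX1 -0.0997 and PBX2 0.00548. Median centring gave HOXA10 -0.0251, MEIS1 -0.0193, DLX1 -0.0826, ADNP -0.0833 and ZHX1 -0.0804. With 1 library left out, HOXC9 ranged from -0.359 to 0.102 (above 0 without resistant 2 or control 1), HOXC8 from -0.268 to 0.0567 (above 0 without resistant 2 or control 2), DLX1 from -0.144 to 0.259 (below 0 without resistant 2 or control 3), PKNOX1 from -0.127 to 0.0455 (above 0 without resistant 1, control 1 or control 3) and ZHX1 from -0.00472 to 0.106 (below 0 without control 2). Median centring gave 3713 rises and 6666 falls over the whole table, against 5010 and 5194. With the replicate block, 25 homeobox genes rose and 16 fell and no named call changed; deviations of same-numbered libraries correlated between -0.0015 and 0.0067, so the numbers were not treated as pairs. Depth limits the genes with few reads: 60 of the 121 had a mean under 20.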
